A study of Mus musculus with 12 samples.

Results

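Foxa1, Trp63, Sox9, Sox4, Sox2, Gata3, Elf3 and Ehf encode transcription factors that mark or set the luminal and basal lineages of the prostate and of other epithelia. They were taken from a list of 8 named genes, each read from its brightest probe set with a single gene symbol on the array. All 8 had such a probe set, among 22180 genes on the table, and all 8 were among the 20135 genes bright enough to test. The values are deposited log2 signals, so a difference of 1 is a doubling of signal. They came from 12 arrays of cells sorted from wild-type, hormone-naïve male mice, whose age was not given in the sources used here. Cells negative for the blood, endothelial and erythroid surface markers CD45, CD31 and Ter119 were divided into 3 gates. The luminal gate was low for both Sca1 and CD49f, the basal gate was intermediate for Sca1 and positive for CD49f, and the Sca1-high gate was high for Sca1 and positive for CD49f. Each gate was split by the surface protein LY6D into an LY6D+ and an LY6D- fraction, which gave 6 groups of 2 arrays, 1 per mouse. Luminal cells came from mice 4 and 5, Sca1-high cells from mice 1 and 5 and basal cells from mice 3 and 5.

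Prostate glands are lined by tall secretory luminal cells that rest on a layer of basal cells. FOXA1 is a pioneer factor, a protein that opens closed chromatin, and it guides the androgen receptor to its binding sites in luminal cells. GATA factors cooperate with both. The p63 protein, encoded by Trp63, is the defining nuclear marker of basal cells and drives genes for basal keratins, hemidesmosomes and adhesion. SOX proteins bind DNA through a high-mobility-group domain: SOX9 acts in prostate budding, SOX4 in epithelial progenitors and in tumours, and SOX2 in pluripotent and some basal stem cells. ELF3 and EHF belong to the epithelium-specific branch of the ETS family, whose members act in the differentiation of secretory and barrier epithelia.

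Promoter sequences show how unlike the start regions of 3 of these genes are, chosen because their signals led the gate comparisons and a sequence was at hand. A RefSeq promoter (250 bases before to 50 after the gene start, mouse build GRCm38.p6) was matched for 5 of the 8 genes: Foxa1, Sox4, Gata3, Sox2 and Elf3. Capitals mark matches, on either strand, to 8 short motifs: TGTTTAC for forkhead factors, AGATAA for GATA factors, ACAATG for SOX factors, CCGGAAG for ETS factors, AGAACA for the androgen receptor half-site, GGGCGG for the GC box, CCAAT for the box of that name and TATAAA for the TATA box. All 3 genes lie on the minus strand and are written 5′ to 3′ along the gene, from chr12:57546062-57546361 for Foxa1, chr13:28953650-28953949 for Sox4 and chr2:9878551-9878850 for Gata3.
Foxa1: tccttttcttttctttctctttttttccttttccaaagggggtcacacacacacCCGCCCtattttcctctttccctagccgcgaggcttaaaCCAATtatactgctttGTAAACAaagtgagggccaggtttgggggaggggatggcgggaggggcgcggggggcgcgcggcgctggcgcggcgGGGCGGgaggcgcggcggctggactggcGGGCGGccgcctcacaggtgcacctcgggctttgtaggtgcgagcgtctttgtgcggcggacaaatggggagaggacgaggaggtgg
Sox4: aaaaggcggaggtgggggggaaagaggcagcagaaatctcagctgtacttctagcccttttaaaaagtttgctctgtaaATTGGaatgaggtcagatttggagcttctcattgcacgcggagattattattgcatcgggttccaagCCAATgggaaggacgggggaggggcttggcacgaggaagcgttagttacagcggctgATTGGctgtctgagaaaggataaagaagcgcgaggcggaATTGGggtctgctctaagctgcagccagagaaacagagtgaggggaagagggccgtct
Gata3: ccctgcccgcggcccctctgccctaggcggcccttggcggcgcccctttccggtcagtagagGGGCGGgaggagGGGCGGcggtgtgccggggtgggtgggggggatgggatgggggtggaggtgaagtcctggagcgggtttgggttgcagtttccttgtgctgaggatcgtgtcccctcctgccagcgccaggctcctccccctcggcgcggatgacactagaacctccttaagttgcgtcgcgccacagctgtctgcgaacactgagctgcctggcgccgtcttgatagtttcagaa
The Foxa1 window held 1 forkhead match at -141 from the start, 1 CCAAT box and 3 GC boxes. A forkhead match stood in 3.65% of the 32851 mouse promoters of this length, a CCAAT box in 37.4% and a GC box in 35.7%. The Sox4 window held 4 CCAAT boxes and none of the other motifs, and the Gata3 window held 2 GC boxes and none of the other motifs. No 2 capital stretches overlap. Foxa1 and Gata3 had 26 and 22 CG dinucleotides against a median of 7 over all promoters, with 62.3% and 67.3% G and C bases against 52.7%. Sox4 was close to the median in G and C bases, at 52%, but its 12 CG dinucleotides were above the median of 7. GATA, SOX, ETS, half-site and TATA matches, which stood in 11.2%, 12.6%, 8.86%, 19% and 13.6% of promoters, were in none of these windows. A match is a description of the letters and not a bound site.

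Several libraries stood apart from their labels or from their group. Both basal libraries and the luminal LY6D- library of mouse 5 had coordinates of 71.5, 73.1 and 32.9 on the first principal component, where no other library passed 18.5. The LY6D+ Sca1-high library of mouse 5 had the lowest signal of all 12 for the luminal keratins, 6.48 for Krt8 and 5.30 for Krt18. The Ly6d transcript did not follow the LY6D sort: it was higher in the LY6D+ library in 3 of the 6 mouse pairs, and its highest signal, 7.37, was in the LY6D- Sca1-high library of mouse 5. The fractions are therefore named here as they were labelled. Ptprc, which encodes CD45, reached 8.90 in the LY6D- luminal library of mouse 5, although CD45 was sorted against. Pecam1, which encodes CD31, also sorted against, lay between 6.84 and 9.58 in Sca1-high and between 5.70 and 8.62 in basal libraries, against 4.43 to 5.73 in luminal ones. The mean of 19 endothelial markers was 6.38 and 6.27 in the basal LY6D- libraries of mice 3 and 5, against 4.31 and 4.38 in their LY6D+ partners. Sorted fractions are bulk samples, in which fewer cells of a type and less RNA per cell cannot be told apart.

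None of the 8 factors passed the test between any gates at a Benjamini-Hochberg adjusted p of 0.05 (limma, mean of the LY6D+ and LY6D- groups of each gate, 4 libraries a gate). The same test called 0.417% of genes between the basal and luminal gates, 0.139% between Sca1-high and luminal and 0.00993% between Sca1-high and basal. Before adjustment, 4 of the 8 had a p under 0.05 in basal against luminal cells, where 9.44% of all genes did: Foxa1 and Sox4 had higher values and Gata3 and Ehf lower values in the basal gate. In Sca1-high against luminal cells Gata3 and Ehf had a p under 0.05, both with lower values, against 8.41% of all genes. In Sca1-high against basal cells Foxa1, Sox9 and Sox4 did, all with lower values, against 9.83%. The median of the 8 differences was 0.44, -0.29 and -0.50 in these comparisons, where the median of all tested genes was -0.03, 0.07 and 0.11. The 3 comparisons share libraries in pairs, and libraries of one mouse were treated as independent in the p-values.

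**Figure D1:**
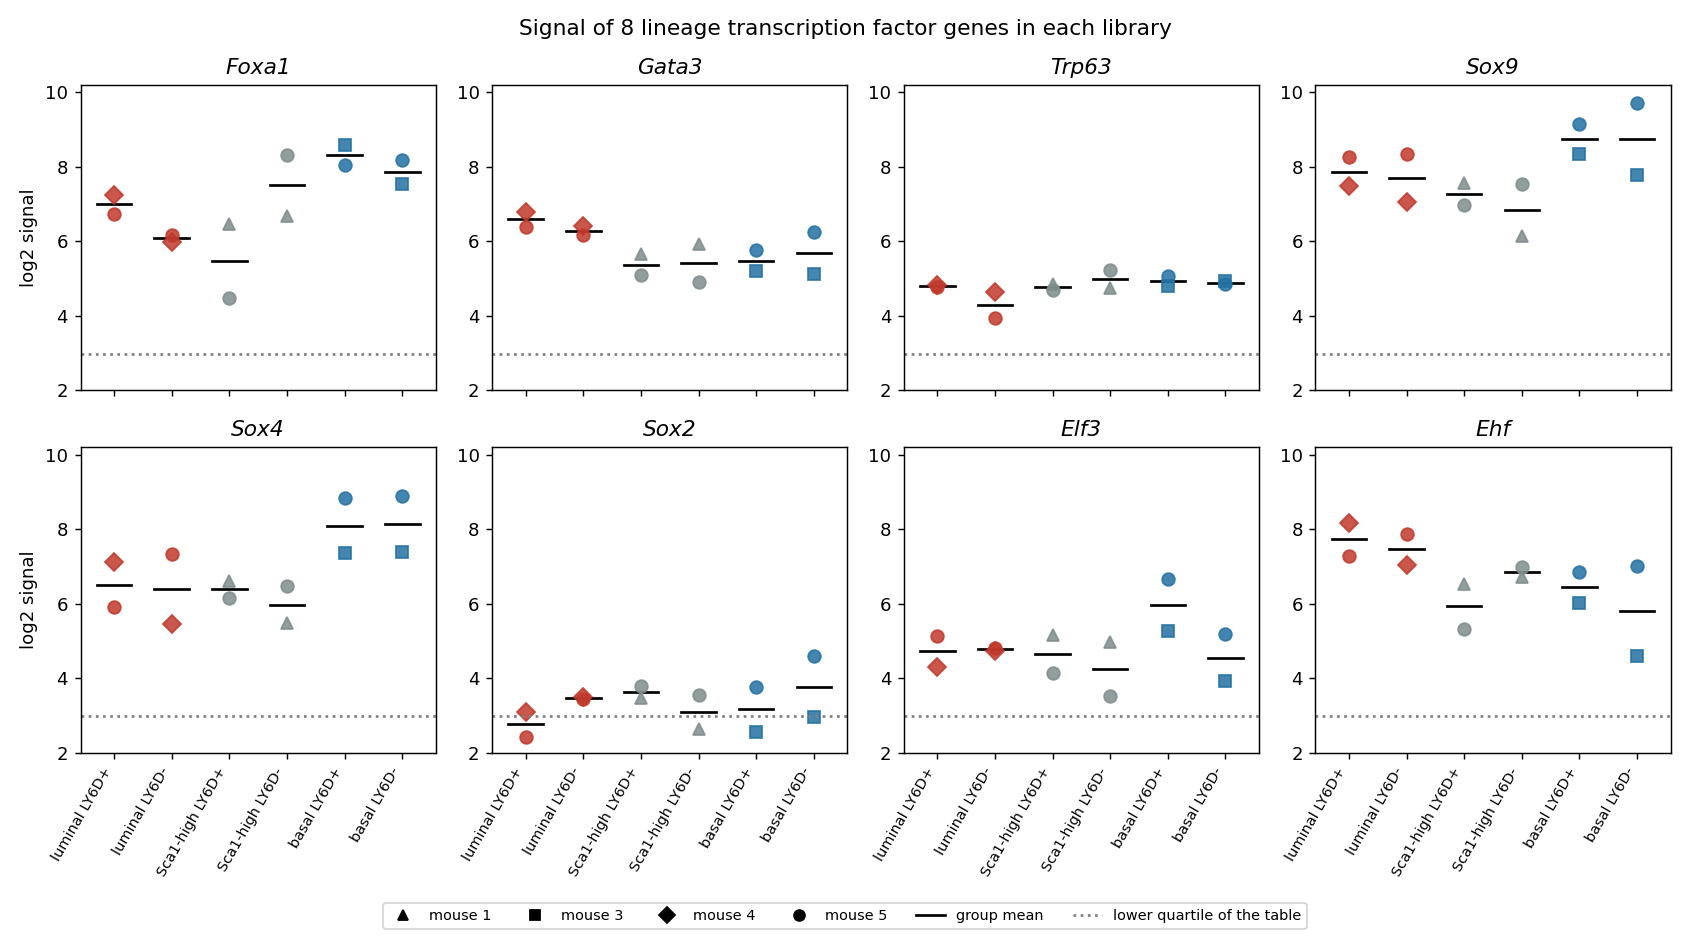
Log2 signal of each of the 8 factors (1 panel each) in the 12 libraries, by gate and LY6D fraction, with 1 point per mouse. Foxa1 and Sox4 are highest in the basal gate, Gata3 and Ehf in the luminal gate, and Trp63 lies within 3.94 to 5.22 throughout.

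Foxa1 (probe set 17281337), the pioneer factor of luminal cells, had its highest signals in basal libraries. The basal LY6D+ libraries were at 8.59 in mouse 3 and 8.06 in mouse 5, and the basal LY6D- libraries at 7.54 and 8.18. The luminal LY6D+ libraries were at 7.24 in mouse 4 and 6.74 in mouse 5, and the luminal LY6D- libraries at 5.99 and 6.16. All 4 basal libraries thus lay above all 4 luminal libraries. Libraries stood this way, basal above luminal with no overlap, for 2.58% of genes, and Foxa1 and Sox4 were the 2 of the 8 that did so. The Sca1-high gate spanned both ranges: mouse 1 gave 6.46 in the LY6D+ and 6.68 in the LY6D- fraction, and mouse 5 gave 4.47 and 8.33. The gate means were 8.09 ± 0.43 in basal, 6.54 ± 0.57 in luminal and 6.49 ± 1.58 in Sca1-high cells (SD, n = 4). Basal exceeded luminal by 1.56 ± 0.48 (moderated SE, adjusted p = 0.291 by limma), and Sca1-high minus luminal was -0.05 ± 0.48 with a 95% interval from -1.12 to 1.02, of the opposite sign (0.20) after quantile normalization. Sca1-high minus basal was -1.61 ± 0.48 (adjusted p = 0.367 by limma). Of its paralogs, which also bind as forkhead factors, Foxa2 was at 5.17 ± 0.40 in luminal, 5.14 ± 0.19 in Sca1-high and 4.94 ± 0.16 in basal cells (SD, n = 4), and Foxa3 at 4.44 ± 0.41, 4.53 ± 0.46 and 4.15 ± 0.39. Neither had an unadjusted p under 0.05 in a gate comparison. Foxa1 varied over the 12 libraries more than most genes, with an SD larger than that of 95.8% of genes tested. Of the luminal keratins, Krt8 lay at 8.88 to 10.91 in basal and 9.63 to 10.57 in luminal libraries. Krt18 lay at 10.13 to 11.60 and 10.31 to 11.14, so both overlapped. Over all 12 libraries Foxa1 followed the mean of 17 basal epithelial markers at r = 0.72 and that of 16 luminal ones at r = 0.41. With the mean of 20 fibroblast and smooth muscle markers r was -0.81 and with that of 22 myeloid markers -0.34. The part of other cells' RNA in the Foxa1 values was not tested.

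Gata3 (probe set 17381533), a factor of luminal differentiation in several glands, had its highest signals in the luminal gate. Luminal libraries lay at 6.79 and 6.39 in the LY6D+ and 6.40 and 6.17 in the LY6D- fraction, mouse 4 first. Sca1-high libraries lay at 5.65 and 5.10 in the LY6D+ and 5.92 and 4.90 in the LY6D- fraction, mouse 1 first. Every Sca1-high library was below every luminal library, a separation that 2.48% of genes showed in this direction and that Gata3 shared with Ehf alone among the 8. The basal LY6D+ libraries were at 5.20 in mouse 3 and 5.75 in mouse 5, and the basal LY6D- libraries at 5.12 and 6.26, so the last overlapped the luminal range. Sca1-high minus luminal was -1.04 ± 0.33 (adjusted p = 0.412 by limma) and basal minus luminal -0.85 ± 0.33 (adjusted p = 0.433 by limma). Sca1-high and basal cells, at 5.39 ± 0.47 and 5.58 ± 0.53 (SD, n = 4), differed by -0.19 with a 95% interval from -0.93 to 0.55, of the opposite sign (0.11) after quantile normalization. With mouse as a block, where gates are compared within mouse 5, the basal minus luminal value was -0.27, and without the 3 mouse 5 libraries that stood apart it was -1.34. A second Gata3 probe set (17366644) followed the first at r = 0.545 over the 12 libraries and gave smaller differences, -0.40 for Sca1-high and -0.36 for basal against luminal cells. Gata2, which also works with the androgen receptor, was the GATA factor with the largest difference: 5.93 ± 0.76 in luminal, 4.54 ± 0.22 in Sca1-high and 4.09 ± 0.20 in basal cells (SD, n = 4). Neither its basal minus luminal value of -1.85 ± 0.34 (adjusted p = 0.0679 by limma) nor its Sca1-high minus luminal value of -1.39 ± 0.34 (adjusted p = 0.274) passed. The mean of 22 myeloid markers was also highest in luminal libraries, at 6.17 to 7.09 against 4.58 to 5.85 in Sca1-high and 4.25 to 4.77 in basal ones. Gata3 followed that mean at r = 0.60 and the mean of 8 seminal vesicle genes at r = 0.74 over the 12 libraries, and the part of either in the Gata3 and Gata2 values was not tested. Of 6 GATA factors tested, Gata2 and Gata3 were the 2 with an unadjusted p under 0.05 in either comparison with the luminal gate. Over all genes 9.44% had one in basal against luminal and 8.41% in Sca1-high against luminal cells.

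Trp63 (probe set 17324486), the basal lineage factor, had gate means within 0.36 of each other. Its basal libraries lay at 4.79 and 5.07 in the LY6D+ and 4.93 and 4.84 in the LY6D- fraction, mouse 3 first. The Sca1-high libraries lay at 4.85 and 4.68 in the LY6D+ and 4.74 and 5.22 in the LY6D- fraction, mouse 1 first. The luminal LY6D+ libraries were at 4.81 in mouse 4 and 4.78 in mouse 5, and the luminal LY6D- libraries at 4.65 and 3.94. Basal and luminal libraries overlapped, and the highest signal was in a Sca1-high library. Basal minus luminal was 0.36 ± 0.21 with a 95% interval from -0.11 to 0.84 (adjusted p = 0.701 by limma), and Sca1-high minus luminal 0.33 ± 0.21 (adjusted p = 0.704). The basal minus luminal value was 0.60 with mouse as a block and 0.14 without the 3 mouse 5 libraries. It was 0.19 without the luminal LY6D- library of mouse 5 and 0.54 without that of mouse 4 (unadjusted p = 0.0244 by limma), with an adjusted p of 0.368 or more in all alternatives. The SD of Trp63 over the 12 libraries, 0.31, was larger than that of 36.2% of genes tested. Its gate means were 4.55 in luminal, 4.87 in Sca1-high and 4.91 in basal cells, where the median of the whole table was 3.90. A narrow range at this signal on 1 probe set does not show that the Trp63 transcript is alike in the gates. The gene has several promoters and splice forms, and 1 probe set does not tell its isoforms apart. The lowest Trp63 library, luminal LY6D- of mouse 5, was also the one with the highest mean over 24 lymphoid markers, 5.61, where the other 11 libraries lay at 4.79 or less; its part in the result was not tested.

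Genes known to be driven by p63 were set beside Trp63 in the same comparisons. Of 30 listed targets, 24 were tested, and 16 had an unadjusted p under 0.05 with higher values in basal than in luminal cells, none with lower values. The median difference over the 24 was 1.49, against -0.03 over all genes, of which 9.44% had an unadjusted p under 0.05. Col17a1, the hemidesmosomal collagen, was the target that passed, higher in basal cells by 2.14 ± 0.32 (adjusted p = 0.0322 by limma). Krt14, a basal keratin, was 3.21 ± 0.64 higher (adjusted p = 0.0794). In Sca1-high against basal cells 15 had lower and 1 higher values at an unadjusted p under 0.05, against 9.83% of all genes. The median of the 24 was -1.31, and none of them passed adjustment. With mouse as a block 1 passed, with lower values, and without the basal LY6D- library of mouse 3, 4 did. The count of 15 was 5 without the 3 mouse 5 libraries that stood apart, with a median of -0.50. It was 6 without the basal LY6D- library of mouse 5, 7 without its LY6D+ library or without the Sca1-high LY6D- library of mouse 1, and 8 without the Sca1-high LY6D+ library of mouse 5. Against luminal cells the Sca1-high gate had 1 target with higher and 1 with lower values at that threshold and a median of 0.09. Without the 3 mouse 5 libraries that stood apart, the basal against luminal count was 9 of 24, the median 0.67, and Col17a1 was at 1.76 (adjusted p = 0.189). The count of targets that passed in basal against luminal cells was 2 with mouse as a block and 6 without the basal LY6D- library of mouse 3, and leaving out 1 library at a time gave 0 to 6. The count at an unadjusted p under 0.05 was 10 without the basal LY6D+ library of mouse 5. Several targets are also basal markers and the list was chosen with these data known, so its direction is not independent evidence. Over the 12 libraries the mean of the targets followed Trp63 at r = 0.49, and followed Sox4 at 0.86 and Sox9 at 0.80; these points share mice and gates.

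**Figure D2:**
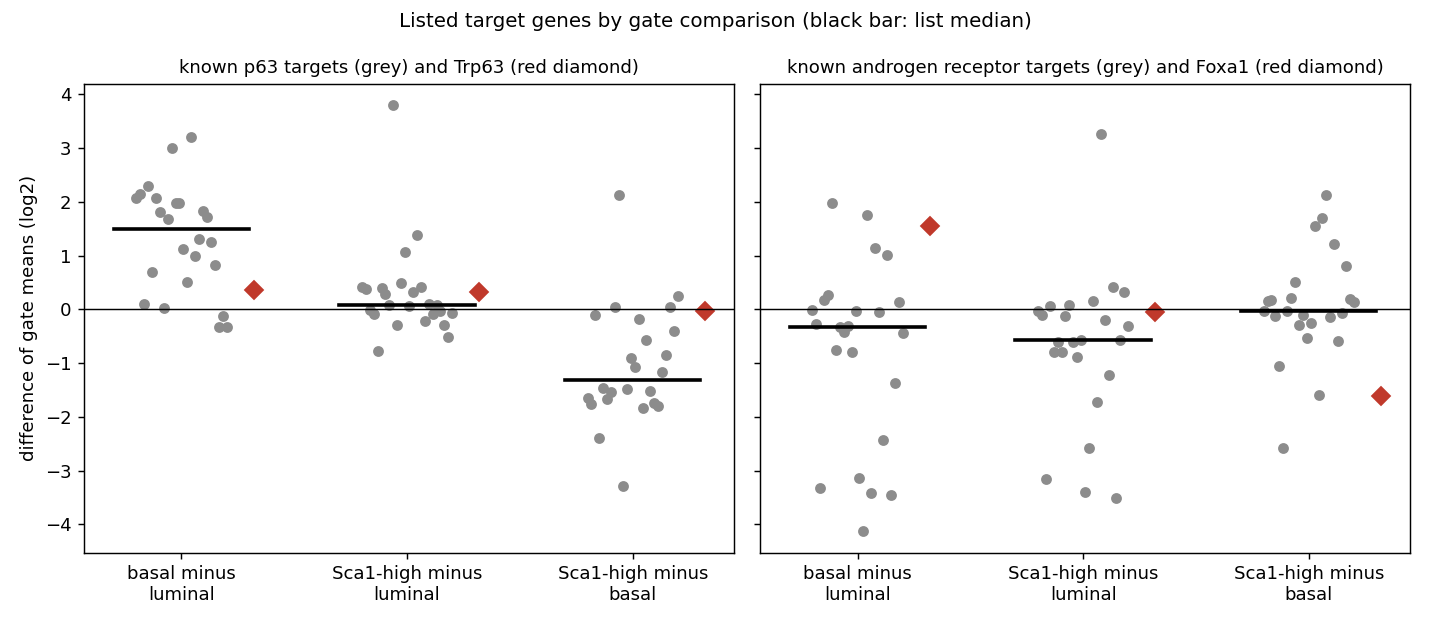
Differences of gate means on the log2 scale for the listed p63 targets (left) and androgen receptor targets (right) in basal minus luminal, Sca1-high minus luminal and Sca1-high minus basal cells. Each grey point is a target gene, and black bars are list medians. Red diamonds show Trp63 on the left and Foxa1 on the right. In basal minus luminal cells the median of the p63 targets is 1.49 and Trp63 is at 0.36.

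Androgen receptor targets, many of whose sites FOXA1 helps to open, included 2 genes that were lower in both other gates than in the luminal gate. Of 29 listed targets, 24 were tested. In basal against luminal cells 10 had an unadjusted p under 0.05 with lower and 2 with higher values, and 2 passed: Azgp1, a secreted glycoprotein, fell by 3.32 ± 0.32 (adjusted p = 0.00672 by limma) and Mme, a membrane peptidase, fell by 3.13 ± 0.50 (adjusted p = 0.0402). In Sca1-high against luminal cells 6 were lower and 1 higher at that threshold, and the same pair passed, at -3.15 ± 0.32 (adjusted p = 0.0106) for Azgp1 and -3.39 ± 0.50 (adjusted p = 0.0484) for Mme. Over all genes, 9.44% and 8.41% had an unadjusted p under 0.05 in these comparisons, and 0.417% and 0.139% passed. Medians over the 24 targets were -0.32 and -0.57, and -0.03 between Sca1-high and basal cells. Without the 3 mouse 5 libraries neither gene passed, at -3.41 (adjusted p = 0.0858) and -3.44 (adjusted p = 0.195) in basal against luminal cells. Signal of this list went with Gata3 (r = 0.82) and Ehf (r = 0.89) over the 12 libraries and not with Foxa1 (r = -0.11). These points share mice and gates. The list was chosen with these data known, so its direction is not independent evidence.

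Sox9 (probe set 17257946) had its highest signals in basal cells and its lowest in Sca1-high cells. Basal libraries lay at 8.35 and 9.16 in the LY6D+ and 7.78 and 9.72 in the LY6D- fraction, mouse 3 first. Sca1-high libraries lay at 7.58 and 6.97 in the LY6D+ and 6.13 and 7.53 in the LY6D- fraction, mouse 1 first. The luminal LY6D+ libraries were at 7.48 in mouse 4 and 8.26 in mouse 5, and the luminal LY6D- libraries at 7.05 and 8.35, between the other gates and overlapping both. All Sca1-high libraries lay below all basal ones, by 1.70 ± 0.51 in the means (adjusted p = 0.370 by limma). Sox9 and Sox4 were the 2 of the 8 with that separation, which 2.26% of genes had in this direction. None of the 8 had all Sca1-high libraries above all luminal or all basal ones, as 3.57% and 4.77% of genes did. Basal minus luminal was 0.97 ± 0.51 (adjusted p = 0.653) and Sca1-high minus luminal -0.74 ± 0.51 (adjusted p = 0.728). Without the 3 mouse 5 libraries that stood apart, Sca1-high minus basal was -1.01 and basal minus luminal 0.60. Leaving out 1 library moved basal minus luminal to between 0.48 (basal LY6D- of mouse 5) and 1.45 (basal LY6D- of mouse 3). It moved Sca1-high minus luminal to between -1.08 (Sca1-high LY6D- of mouse 5) and -0.39 (Sca1-high LY6D- of mouse 1). Mouse 5 gave higher values than mouse 3 in the basal gate, by 1.37, and higher values than mouse 4 in the luminal gate, by 1.04.

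Sox4 (probe set 17286231) had the largest gate difference of the 8. The basal LY6D+ libraries were at 7.35 in mouse 3 and 8.83 in mouse 5, and the basal LY6D- libraries at 7.38 and 8.88. Luminal libraries lay at 7.11 and 5.90 in the LY6D+ and 5.45 and 7.33 in the LY6D- fraction, mouse 4 first, and Sca1-high libraries at 6.61 and 6.15 and at 5.48 and 6.46, mouse 1 first. All basal libraries were above all luminal and all Sca1-high libraries, though the lowest basal one exceeded the highest luminal one by less than the spread within either gate. Basal exceeded luminal by 1.66 ± 0.56 (adjusted p = 0.347 by limma). Sca1-high minus basal was -1.94 ± 0.56 (adjusted p = 0.350), and Sca1-high minus luminal -0.27 ± 0.56 with a 95% interval from -1.52 to 0.98, of the opposite sign (0.054) after quantile normalization. The other Sox4 probe set (17291525) followed it at r = 0.890 over the 12 libraries and gave 1.49 for basal minus luminal and -1.38 for Sca1-high minus basal. Sca1-high minus luminal was 0.11 on that probe set, of the opposite sign. Mouse 5 exceeded mouse 3 by 1.49 within the basal gate. Without the 3 mouse 5 libraries that stood apart the basal minus luminal value was 1.39 and the Sca1-high minus basal value -1.19.

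Sox2 (probe set 17396878) was close to background. It was at or under the lower quartile of the whole table, 2.98, in 4 of the 12 libraries. Its highest signal, 4.59, was in the LY6D- basal library of mouse 5, whose LY6D+ partner was at 3.77, while the basal LY6D- and LY6D+ libraries of mouse 3 were at 2.95 and 2.56. Luminal libraries ranged from 2.43 to 3.49 and Sca1-high libraries from 2.63 to 3.78, so all gates overlapped. The gate means were 3.11 ± 0.49, 3.35 ± 0.50 and 3.47 ± 0.90 in luminal, Sca1-high and basal cells (SD, n = 4), and adjusted p by limma was between 0.897 and 0.926 in the gate comparisons. Of the 20 SOX factors tested, 2 had higher values at an unadjusted p under 0.05 in basal against luminal cells, Sox4 and Sox7. Sox7 and Sox21 did in Sca1-high against luminal cells. Such a p, in either direction, was found for 9.44% and 8.41% of all genes in these comparisons. Sox7, known from vascular endothelium, was 1.16 ± 0.35 higher in Sca1-high than in luminal cells (adjusted p = 0.398), and the mean of 19 endothelial markers was 5.46 to 6.94 in Sca1-high libraries against 4.12 to 4.50 in luminal ones. Sox7 is itself among those 19 markers, so its value and their mean are not independent. The part of endothelial RNA in the Sox7 value was not tested.

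Ehf (probe set 17388774) was highest in the luminal gate. Luminal libraries lay at 8.17 and 7.29 in the LY6D+ and 7.05 and 7.86 in the LY6D- fraction, mouse 4 first. Sca1-high libraries lay at 6.53 and 5.33 in the LY6D+ and 6.72 and 6.996 in the LY6D- fraction, mouse 1 first. The basal LY6D+ libraries were at 6.03 in mouse 3 and 6.85 in mouse 5, and the basal LY6D- libraries at 4.59 and 7.005. Every luminal library was above every library of the other gates, but the lowest luminal library, at 7.05, and the highest basal one lay close together. Ehf was the factor of the 8 with all basal below all luminal libraries, as were 3.17% of genes. Basal minus luminal was -1.48 ± 0.53 (adjusted p = 0.384 by limma) and Sca1-high minus luminal -1.20 ± 0.53 (adjusted p = 0.588). With mouse as a block the basal minus luminal value was -0.65, and without the 3 mouse 5 libraries it was -2.08. Ehf followed the mean of 8 seminal vesicle secretion genes at r = 0.92 over the 12 libraries. That mean lay at 11.38 to 11.79 in luminal, 7.18 to 10.05 in Sca1-high and 6.54 to 10.90 in basal libraries, and its part in the Ehf difference was not tested. Ehf also followed the mean of 16 luminal epithelial markers at r = 0.83 and that of 22 myeloid markers at r = 0.69. With the mean of 19 endothelial markers r was -0.62. The part of other cells' RNA in the Ehf values was not tested.

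Elf3 (probe set 17227266), the other epithelial ETS factor, varied within gates as much as between them. The basal LY6D+ libraries had the 2 highest signals, 6.66 in mouse 5 and 5.27 in mouse 3, and the basal LY6D- libraries were at 5.19 in mouse 5 and 3.91 in mouse 3. Luminal libraries lay at 4.30 and 5.13 in the LY6D+ and 4.74 and 4.81 in the LY6D- fraction, mouse 4 first. Sca1-high libraries lay at 5.16 and 4.13 in the LY6D+ and 4.97 and 3.51 in the LY6D- fraction, mouse 1 first. All gates overlapped. The largest gate difference was Sca1-high minus basal at -0.82 ± 0.47 (adjusted p = 0.567 by limma), which was -0.15 without the 3 mouse 5 libraries. With mouse as a block it was -2.11 (adjusted p = 0.0525 by limma). That value compares the gates within mouse 5 alone, whose means were 3.82 in Sca1-high and 5.93 in basal cells. The Sca1-high mean of mouse 1, 5.06, was above the basal mean of mouse 3, 4.59. Of 25 ETS factors tested, 3 had higher and 3 lower values at an unadjusted p under 0.05 in basal against luminal cells. In Sca1-high against luminal cells 3 and 3 did. Over all genes the shares with such a p were 9.44% and 8.41%. Spic, known from red pulp macrophages, had a basal minus luminal difference of -2.51 ± 0.59 (adjusted p = 0.155), and the mean of 22 myeloid markers was 6.17 to 7.09 in luminal libraries against 4.25 to 4.77 in basal ones. Erf, a transcriptional repressor, was 1.62 ± 0.65 higher in basal than in luminal cells (adjusted p = 0.460). Erg, known from endothelium, was 2.67 ± 0.69 higher in Sca1-high than in luminal cells (adjusted p = 0.310), beside the endothelial marker values given for Sox7. The part of other cells' RNA in these values was not tested.

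**Figure D3:**
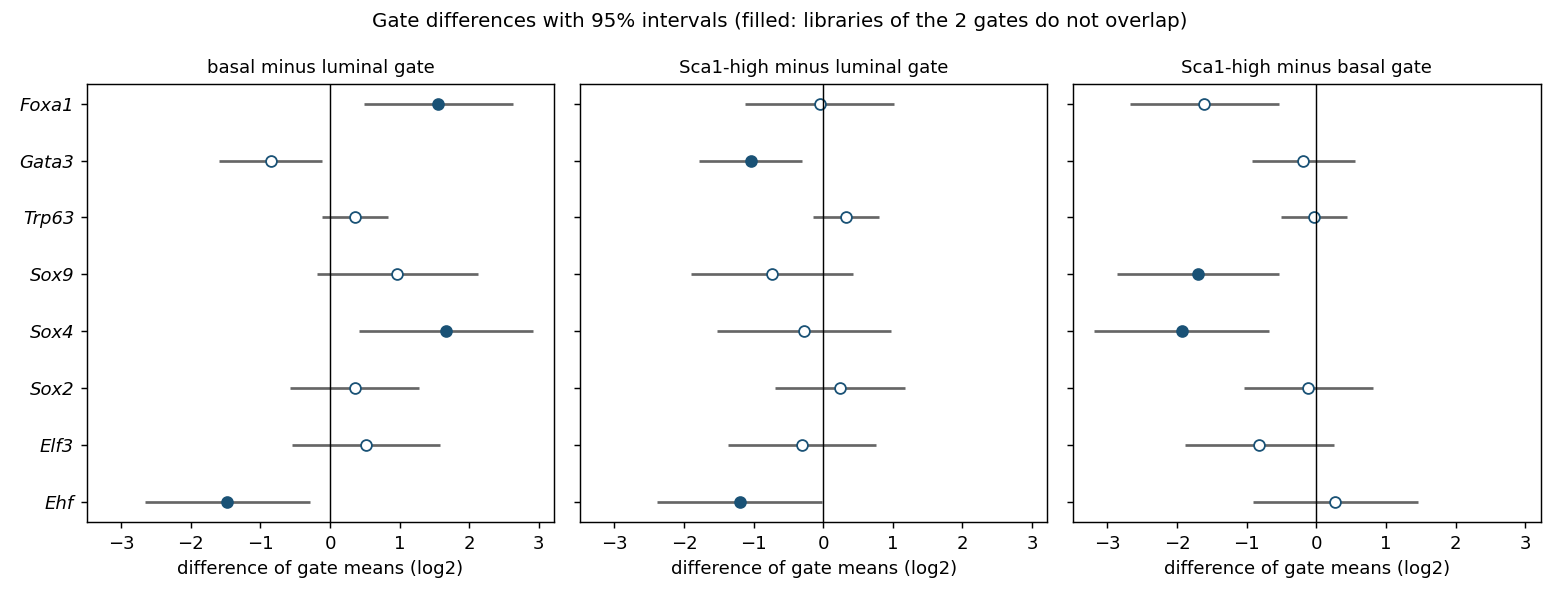
Differences of gate means on the log2 scale with 95% moderated intervals for the 8 factors in basal minus luminal, Sca1-high minus luminal and Sca1-high minus basal cells; filled points mark factors whose libraries do not overlap between the gates. Foxa1 and Sox4 lie above 0 and Ehf below it in the first panel, Gata3 and Ehf lie below 0 in the second, and Sox9 and Sox4 lie below 0 in the third.

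Ordered by level, the 6 groups of a factor formed few clear steps. The mean of the basal LY6D+ group was the highest for Foxa1, 8.32, and for Elf3, 5.96, and that of the luminal LY6D+ group was the highest for Gata3, 6.59, and for Ehf, 7.73. Of the 5 gaps between neighbouring groups, 1 exceeded the moderated SE of a difference for each of Foxa1, Trp63, Sox9, Sox4, Gata3 and Elf3, and 0 did for Sox2 and Ehf. The largest was for Sox4, 1.59 between the basal LY6D+ and the luminal LY6D+ group. For Elf3 it was 1.19, between the basal LY6D+ and the luminal LY6D- group. For Foxa1 the step of 0.92 fell inside the luminal gate, between its LY6D+ and LY6D- fractions. All other neighbouring groups lay within that SE of each other.

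Between LY6D fractions of the same mouse and gate no factor differed in the same direction in all 6 pairs. The limma test called none of the 8, with every adjusted p at 0.999 or 1, over the gates, within any gate or for the difference of the LY6D effect between gates. It called 0% of genes over the gates, in the luminal gate, in the Sca1-high gate and for each difference between gates, and 0.00993% in the basal gate. Before adjustment, p was under 0.05 for 0 of the 8 over the gates, in luminal and in basal cells, and for 1, Foxa1, in Sca1-high cells. Foxa1 was higher in LY6D+ than in LY6D- luminal cells by 1.25 in mouse 4 and 0.58 in mouse 5. In Sca1-high cells it differed by -0.22 in mouse 1 and by -3.86 in mouse 5, and in basal cells by 1.04 in mouse 3 and -0.12 in mouse 5. In the Sca1-high pair of mouse 5 the mean of 16 luminal epithelial markers was 6.45 in the LY6D+ and 7.64 in the LY6D- library. That of 19 endothelial markers was 6.94 and 5.57, and their part in the Foxa1 difference was not tested. In the luminal pairs of mice 4 and 5, Krt14 was 9.87 and 10.31 in the LY6D+ against 4.98 and 6.99 in the LY6D- libraries. The mean of 17 basal epithelial markers was 5.87 and 5.72 against 4.88 and 4.92. The part of these basal signals in the luminal Foxa1 difference was not tested. The luminal estimate was 0.92 ± 0.67 (adjusted p = 1 by limma) and the Sca1-high estimate -2.04 ± 0.67 (unadjusted p = 0.014, where 2.41% of genes had one under 0.05). The Sca1-high LY6D difference minus the luminal one was -2.95 ± 0.95 (unadjusted p = 0.0124 by limma, adjusted p = 1), a comparison in which 2.92% of genes had an unadjusted p under 0.05. The basal minus the Sca1-high LY6D difference was 2.50 ± 0.95 (unadjusted p = 0.0272 by limma, adjusted p = 1), where 2.36% did. Without both Sca1-high libraries of mouse 5, the pair in which the Ly6d transcript was 7.37 in the LY6D- and 4.70 in the LY6D+ library, the Sca1-high estimate was -0.22. Without its LY6D+ library alone it was -1.04, and without its LY6D- library alone -1.22.

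Elf3 was higher in the LY6D+ library in 5 of 6 pairs, as 10.6% of genes were in 5 or 6. Its differences were -0.44 and 0.32 in luminal, 0.19 and 0.62 in Sca1-high and 1.36 and 1.47 in basal cells, mouse 5 second in each. The basal estimate was 1.41 ± 0.67 (unadjusted p = 0.0629 by limma, adjusted p = 1) and that over the gates 0.58 ± 0.39 (adjusted p = 1). Leaving out 1 basal library moved the basal estimate to 0.72 without LY6D+ of mouse 5, 0.77 without LY6D- of mouse 3, 2.05 without LY6D- of mouse 5 and 2.11 without LY6D+ of mouse 3. In the same comparison 11 of the 19 endothelial markers had lower values at an unadjusted p under 0.05 and none higher, with a median of -1.15; their part in the Elf3 value was not tested. Both basal pairs had the LY6D+ library of Elf3 higher by more than 1, with a mouse 3 to mouse 5 gap of 1.34 within each fraction on average. Trp63 and Gata3 were higher in the LY6D+ library in 4 of 6 pairs, Foxa1 and Sox9 in 3, and Sox4, Sox2 and Ehf in 2. Sox4 pair differences ran from -1.43 in luminal cells of mouse 5 to 1.66 in luminal cells of mouse 4, and those of Ehf from -1.67 to 1.44. Gata3 pairs differed least, from -0.51 to 0.39.

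**Figure D4:**
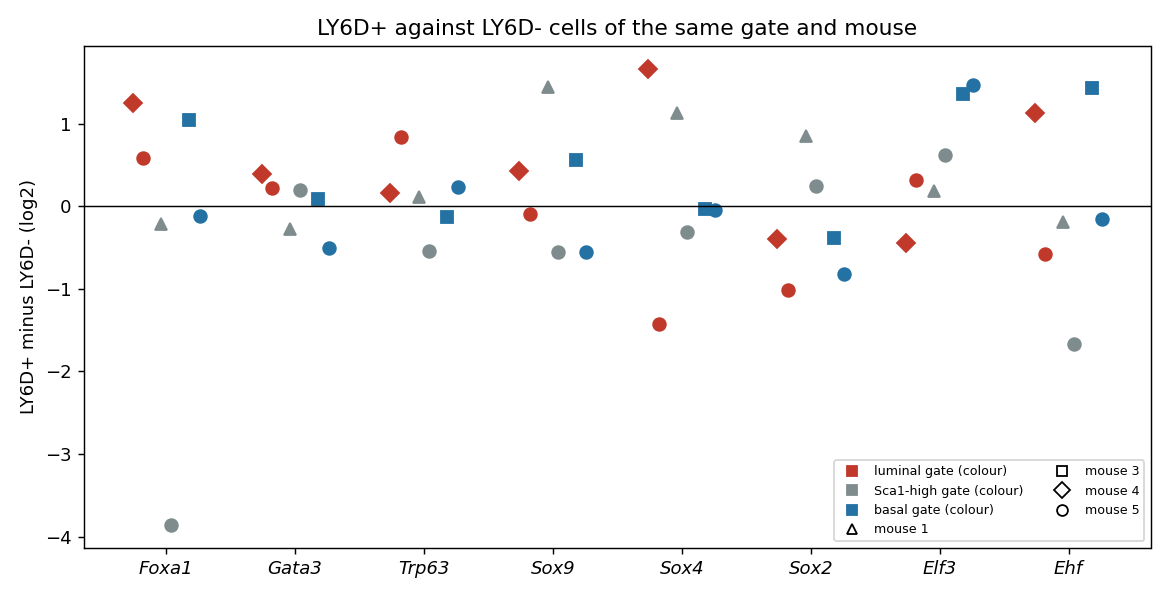
LY6D+ minus LY6D- log2 difference of each factor in the 6 pairs of libraries from the same mouse and gate, coloured by gate. Elf3 is above 0 in 5 of 6 pairs, and the Foxa1 pair of Sca1-high cells from mouse 5 stands at -3.86.

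Among the 8 factors, Sox9 and Sox4 had the most similar profiles over the 12 libraries (Pearson r = 0.865, Spearman rho = 0.804), followed by Gata3 and Ehf (r = 0.757, rho = 0.790). Foxa1 followed Sox4 at r = 0.580 and Sox9 at 0.545, and the lowest value was -0.377 between Trp63 and Gata3. These 12 points come from 4 mice and 3 gates and are not independent. The genes with the profile most like each factor were taken as the 3 with the highest r over the same 12 libraries. For Foxa1 they were the epithelial cadherin Cdh1 (0.91), Anxa2 (0.90) and Ccn1 (0.90), and for Ehf the seminal vesicle secretory genes Svs5 (0.94) and Svs4 (0.92) and Rnf187 (0.94). For Sox9 they were Usp4 (0.95), the adhesion gene Vcl (0.95) and Wdr36 (0.94), and for Sox4 Nvl (0.96), Stk40 (0.95) and Utp18 (0.94). Gata3 was closest to Tmed2 (0.93), Dnajc10 (0.90) and Gm5154 (0.88), and Elf3 to Rab11b (0.93), Psmc3ip (0.89) and Trim28 (0.87). Trp63 was closest to 1700030K09Rik (0.89), Ptprq (0.88) and Dusp18 (0.86), and Sox2 to Rnf113a1 (0.93), Osbpl11 (0.88) and Mical3 (0.86). The 3 genes closest to Trp63 varied little, with SDs of 0.22, 0.17 and 0.27 over the 12 libraries.

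Other regulators of the same lineages stayed below the threshold as well: of 120 lineage transcription factors and partners tested, the 8 included, 0 passed in a gate comparison. Among 27 androgen receptor and luminal regulators, 2 had higher and 4 lower values at an unadjusted p under 0.05 in basal against luminal cells. Over all genes tested, 9.44% had such a p in either direction. The posterior homeobox gene Hoxd13 was 2.55 ± 0.64 higher (adjusted p = 0.186 by limma), with overlapping libraries, and Gata2 had the next largest difference. Hoxb13 had a basal minus luminal difference of -1.37 ± 0.28 (adjusted p = 0.087) and a Sca1-high minus luminal one of -0.98 ± 0.28 (adjusted p = 0.353). All its luminal libraries lay above all basal and all Sca1-high ones, as they did for 3.17% and 2.48% of genes. Among 20 p53 family and basal regulators, 2 were higher and 1 lower at that threshold. Snai2, a zinc-finger factor of basal cells and of epithelial-mesenchymal transition, was 2.16 ± 0.66 higher in basal than in luminal cells (adjusted p = 0.291). Tfap2a was 1.52 ± 0.76 higher but did not reach that threshold (unadjusted p = 0.0748 by limma, adjusted p = 0.601). Among 29 grainyhead, KLF and epithelial state regulators, 7 were higher and 3 lower in basal than in luminal cells at that threshold. In Sca1-high against basal cells 9 were lower and 0 higher at an unadjusted p under 0.05, where 9.83% of all genes had one. In that last comparison Snai2 had a difference of -1.92 ± 0.66 (adjusted p = 0.420) and the epidermal barrier factor Klf4 one of -1.56 ± 0.58 (adjusted p = 0.460). Tfap2a had a larger one there, -2.73 ± 0.76 (adjusted p = 0.348 by limma), with overlapping libraries.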

How the data were processed

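Expression was measured on 12 arrays of sorted mouse prostate epithelial cells, with RNA amplification by a NuGEN Ovation kit, per the labels. Each probe set has a log2 signal as deposited by the authors. RMA and oligo appear in the submitters' processing notes, with versions and parameters not given in the sources used here. Values lay between 0.695 and 14.3 with array medians of 3.76 to 3.99, and were not normalized again. The table held 41345 probe sets, of which 23521 had 1 gene symbol, 1814 several and 16010 none in the annotation. The brightest single-symbol probe set stood for each of 22180 genes, and a gene was tested when 2 or more arrays exceeded 2.98, the lower quartile over all values. This kept 20135 genes. Entrez identifiers matched a mouse RefSeq gene table for 23328 probe sets. The level of one gene was not set against that of another. Arrays carry no read depth; their number, 2 per group, limits the precision.

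A model with a mean for each of 6 groups was fitted over all genes with limma 3.58.1 in R 4.3.3, with moderated variances (residual degrees of freedom 6, prior 3.28), no block and Benjamini-Hochberg adjustment over the 20135 genes at 0.05. The script was tested on simulated data. Pairing of LY6D+ with LY6D- libraries comes from the mouse numbers in the labels. Deviations from the group means correlated within pairs at 0.0220 (luminal), 0.149 (Sca1-high) and 0.407 (basal). Named were the 8 factors, the 3 genes most like each, called genes or the genes of largest difference in each list, paralogs, and sort and keratin genes. The members, gene lists and choices of promoters were made with earlier results of these data known. Alternatives were other filters, scalings, probe set rules, moderation, mouse as a fixed or random block, only the groups compared, and libraries left out. Genes without a single-symbol probe set were not analysed here.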

Additional observations from a re-analysis of the deposited data

How the results depend on the processing

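In none of 23 alternatives did any of the 8 factors pass, so the count stayed at 0 in every comparison; Sox2 had 22, since the stricter filter left it untested. Of 687 alternative values, 656 kept direction and side of the threshold and 31 changed sign. The lowest adjusted p (limma) was 0.0525, for Elf3 in Sca1-high against basal cells with mouse as a replicate block. That fit compares the gates within mouse 5 alone, so its p does not measure how the difference varies between mice. Foxa1 in basal against luminal cells reached 0.0607 with only those groups fitted. The number of the 8 with an unadjusted p under 0.05 was 2 to 4 in basal against luminal, 0 to 3 in Sca1-high against luminal and 2 to 4 in Sca1-high against basal cells. Over all genes the calls varied more, from 84 to between 0 and 255, from 28 to between 0 and 165 and from 2 to between 1 and 133 in these comparisons. Centring arrays on their medians moved the median of all genes in Sca1-high minus basal from 0.11 to 0.0015, a shift of 0.11 that every factor's difference shared; no sign changed there.

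Without the 3 mouse 5 libraries that stood apart, sign changed for Sox2 (-0.37) and Elf3 (-0.14) in basal minus luminal, Sox4 (0.20) in Sca1-high minus luminal, and Trp63 (0.012), Sox2 (0.60) and Gata3 (0.24) in Sca1-high minus basal. Quantile normalization turned Foxa1 (0.20) and Sox4 (0.054) in Sca1-high minus luminal and Gata3 (0.11) in Sca1-high minus basal. Without both Sca1-high libraries of mouse 5, Foxa1 (0.037), Sox2 (-0.063) and Elf3 (0.32) turned in Sca1-high minus luminal and Gata3 (0.20) in Sca1-high minus basal. The replicate block turned Ehf in Sca1-high minus basal (-0.76); it moved Gata3 there to -1.004, Sox4 to -2.55 and Sox9 to -2.19, Sox4 in basal minus luminal to 2.24, and Gata3 and Elf3 in Sca1-high minus luminal to -1.27 and -1.16. It changed no call of the 8, nor did the random block, with a consensus correlation of 0.150.

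Leaving out 1 library at a time gave ranges that crossed 0 for Sca1-high minus basal in Ehf (-0.33 to 0.88), Gata3 (-0.47 to 0.10), Sox2 (-0.53 to 0.30) and Trp63 (-0.16 to 0.082). For Sca1-high minus luminal they crossed 0 in Foxa1 (-0.55 to 0.45), Elf3 (-0.67 to 0.061) and Sox4 (-0.74 to 0.20), and for basal minus luminal in Sox2 (-0.058 to 0.77). The cause was not tested. Of the target genes called, Col17a1 passed in 12 of 23 alternatives, Azgp1 in 22 and 21 and Mme in 11 and 7 (basal and Sca1-high against luminal cells).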
